A study of Mus musculus with 8 samples.

Results

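Interferon-stimulated genes are the genes that cells switch on when they meet an interferon, and 43 of them were followed here in haematopoietic progenitors of mouse bone marrow. The members were a list of names, and each was read from the probes whose RefSeq transcript belongs to that gene. Of the 43 genes, 41 had a probe on the array and all 41 passed the filter on dim probes, out of 28088 features tested in the series. Mx1 and Mx2, a pair of interferon-induced antiviral GTPases, had no probe under this rule and are not analysed here. One value per gene was used, from the probe of highest mean signal across the 8 arrays.

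Interferons of type I and type III signal through paired receptors to the kinases JAK1 and TYK2. These activate a complex that contains STAT2 and IRF9 and binds the interferon-stimulated response element, a short DNA sequence in the promoters of many of the genes, while interferon gamma acts on the gamma-activated sequence. The products sense foreign RNA and DNA, degrade RNA, block translation, tag proteins with ISG15, restrict viruses at membranes and prepare peptides for presentation. Stem and progenitor cells are known to express a set of these genes without infection, and interferons act on stem cell cycling.

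The arrays compared ACKR1-deficient mice with wild-type littermates. ACKR1 is a chemokine-binding receptor of the atypical class, which does not couple to G proteins. The deficient line had been crossed back to C57Bl/6J for more than 12 generations, and animals of both genotypes came from heterozygous parents, were female, were 12 weeks old and were kept free of specific pathogens. The labels do not describe the allele further and do not say whether an array held RNA of 1 animal or of a pool, so a p-value reflects only how far these samples scatter, and that scatter may be technical. The 4 groups, with 2 arrays each, were deficient GMP, wild-type GMP, deficient LSK and wild-type LSK. GMP, granulocyte-monocyte progenitors, were sorted as lineage-negative, Sca1-negative, cKit-positive cells that carry CD34 and CD16/32. LSK cells, sorted as lineage-negative, Sca1-positive and cKit-positive, hold the haematopoietic stem cells and multipotent progenitors. Sca1 is itself encoded by an interferon-inducible gene, Ly6a, which was not among the members.

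Promoters were read from the RefSeq table of the GRCm38.p6 assembly, which held 33 of the 43 members. The windows ran from 250 bases before to 50 bases after the gene start. The response element was searched as GAAANNGAAA on both strands, and 17 of the 33 members (51.5%) held it, against 1079 of 27025 genes in the table (3.99%). The gamma-activated sequence was searched as TTCNNNGAA, which reads the same on both strands and can share letters with the response element. It was present in 8 of the 33 members (24.2%), against 2582 of the 27025 genes (9.55%). Both motifs were thus more frequent in the members than in the table as a whole, as a description of the list and not of any array. The 250 bases before the start are shown for 4 members. Ifit3, Rsad2 and Ifi44 are shown because they were called between the wild-type populations and have a promoter in the table, and Isg15, chosen after the promoters had been searched, for its 3 overlapping matches. Capitals mark each match to GAAANNGAAA on either strand, and every line runs 5′ to 3′ on the strand of the gene.
Ifit3 (chr19:34583279-34583528, plus strand): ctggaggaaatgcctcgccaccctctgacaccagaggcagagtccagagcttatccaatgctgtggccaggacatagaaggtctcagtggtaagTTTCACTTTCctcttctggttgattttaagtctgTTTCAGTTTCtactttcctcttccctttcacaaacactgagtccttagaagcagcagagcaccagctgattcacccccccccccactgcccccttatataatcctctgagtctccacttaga
Rsad2 (chr12:26456453-26456702, minus strand): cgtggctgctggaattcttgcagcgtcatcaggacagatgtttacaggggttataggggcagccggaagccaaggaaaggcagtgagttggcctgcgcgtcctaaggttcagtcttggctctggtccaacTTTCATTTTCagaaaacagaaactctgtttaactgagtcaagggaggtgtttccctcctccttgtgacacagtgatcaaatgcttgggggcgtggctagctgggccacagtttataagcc
Ifi44 (chr3:151749911-151750160, minus strand): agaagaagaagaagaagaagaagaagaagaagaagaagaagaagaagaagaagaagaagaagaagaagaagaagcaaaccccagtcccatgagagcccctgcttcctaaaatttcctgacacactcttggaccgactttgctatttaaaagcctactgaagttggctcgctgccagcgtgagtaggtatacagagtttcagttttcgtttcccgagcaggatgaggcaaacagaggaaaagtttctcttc
Isg15 (chr4:156200819-156201068, minus strand): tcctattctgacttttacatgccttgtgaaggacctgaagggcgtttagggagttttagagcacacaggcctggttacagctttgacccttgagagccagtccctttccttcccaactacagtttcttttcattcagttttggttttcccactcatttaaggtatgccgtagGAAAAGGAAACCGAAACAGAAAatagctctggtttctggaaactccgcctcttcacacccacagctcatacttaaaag
Ifit3 held 2 separate matches that begin 156 and 122 bases before its start. Rsad2 held 1 match, 120 bases before its start. The 3 matches of Isg15 begin between 78 and 66 bases before its start and run into each other. No match to these letters lies in the Ifi44 stretch.

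Levels are given as log2 of the signal relative to the 75th percentile of its array. Levels of different genes come from different probes and are not set against each other. Of the 8 arrays, deficient LSK replicate 2 stood apart, with 34.3% of spots well above background against 62.5% to 73.1% on the others, and with correlations of 0.683 to 0.776 to them across features. Deficient GMP replicate 1 correlated at 0.888 with its own replicate and at 0.898 with replicate 1 of deficient LSK, while the pair of wild-type GMP arrays correlated at 0.973. Medians over the members are given with and without these 2 arrays. Without deficient GMP replicate 1, 11 members turned the sign of their genotype difference in GMP, and without deficient LSK replicate 2, 8 members turned it in LSK. Of the 41 members, 9 were not well above background on deficient LSK replicate 2 (Eif2ak2, Oas3, Ifit1, Ifit2, Herc6, Bst2, Tap1, Ifit3 and Oas1g), 2 on wild-type GMP replicate 1 (Ifit3 and Oas1g) and 0 on the other 6. Deficient samples lay in 1 column of the slide and wild-type samples in the other, so slide column and genotype cannot be told apart. The Ackr1 probe read −0.06 and −0.15 in deficient GMP and −0.49 and −0.44 in wild-type GMP, with −0.69 and −0.85 in deficient LSK and −0.65 and −1.04 in wild-type LSK. Neither genotype difference was called (limma adjusted p = 1 in GMP and 0.955 in LSK), and as the labels do not give the deleted stretch, this probe checks nothing. In wild-type arrays, 5 of 7 GMP markers had a positive difference between GMP and LSK and 3 were called higher in GMP, such as Ctsg with 5.78 (limma adjusted p = 0.0083), while Kit (−0.63) and Cd34 (−1.05) had negative ones. Of 7 LSK markers, 4 were called lower in GMP, such as Flt3 with −5.98 (limma adjusted p = 0.0168), but Ly6a read 2.84 and 3.12 in wild-type GMP, against 1.84 and 3.80 in wild-type LSK although the GMP gate is Sca1-negative.

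Markers of other cells separated the genotypes. The summed level of 7 late granulocyte markers, on a linear scale in units of the array's 75th percentile, was 3333 and 1215 in deficient GMP and 4.57 and 13.3 in wild-type GMP. It was 1317 and 3257 in deficient LSK and 2.10 and 9.54 in wild-type LSK. The summed level of 7 erythroid markers was 2759 and 1138 in deficient GMP, against 3.99 and 9.76 in wild-type GMP. In deficient LSK that sum was 1351 and 8204, against 7.45 and 44.2 in wild-type LSK. No deficient array overlapped a wild-type array in either sum. The sum of the 7 LSK markers was 15.5 and 19.9 in deficient GMP, against 28.4 and 25.1 in wild-type GMP. In LSK it was 62.2 and 45.9 in deficient arrays, against 79.3 and 123 in wild-type arrays. Both deficient arrays were thus the lower ones in each population. Taken singly, 5 of the 7 had negative genotype differences in LSK and 2 in GMP. On deficient LSK replicate 2, 4 of the 7 were well above background. The sum of 6 plasmacytoid dendritic cell markers, a cell type known for making interferon, was 272 and 145 in deficient GMP and 201 and 158 in wild-type GMP, with 204 and 975 in deficient LSK and 309 and 166 in wild-type LSK, and its groups overlapped in GMP and in LSK. Among its markers, Spib, a factor that B cells also express, rose by 4.23 in the average over both populations (limma adjusted p = 0.0113), with 3.75 in GMP and 4.72 in LSK. Of the 5 plasmacytoid dendritic cell markers tested, 2 lay above 0 and 3 below in LSK, the lowest at −1.54. In GMP 5 of 5 lay above 0. The sums of the other lists overlapped between genotypes in LSK, and in GMP both deficient arrays lay below both wild-type arrays. These lists held 5 B cell markers, 5 T and NK cell markers and 3 of 5 monocyte and macrophage markers. In GMP the B cell sum was 5.63 and 11.0 in deficient and 13.7 and 11.3 in wild-type arrays. The T and NK cell sum was 52.6 and 70.8 in deficient GMP, against 93.0 and 114 in wild-type GMP. That of monocytes and macrophages was 79.7 and 65.3 in deficient GMP, against 102 and 88.8. On LSK arrays the sums of these lists lay between 3.37 and 44.0. Of the 4 B cell markers tested, Ms4a1 rose by 6.09 in deficient GMP (limma adjusted p = 0.0358). In deficient LSK it rose by 5.97 (limma adjusted p = 0.0303). In each population 3 of the 4 lay above 0 and 1 below, at −0.91 in GMP and −0.83 in LSK. The part of these cells in the genotype differences of the members was not tested. In bulk samples of this kind, fewer cells of a type and less RNA per cell cannot be told apart.

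**Figure D1:**
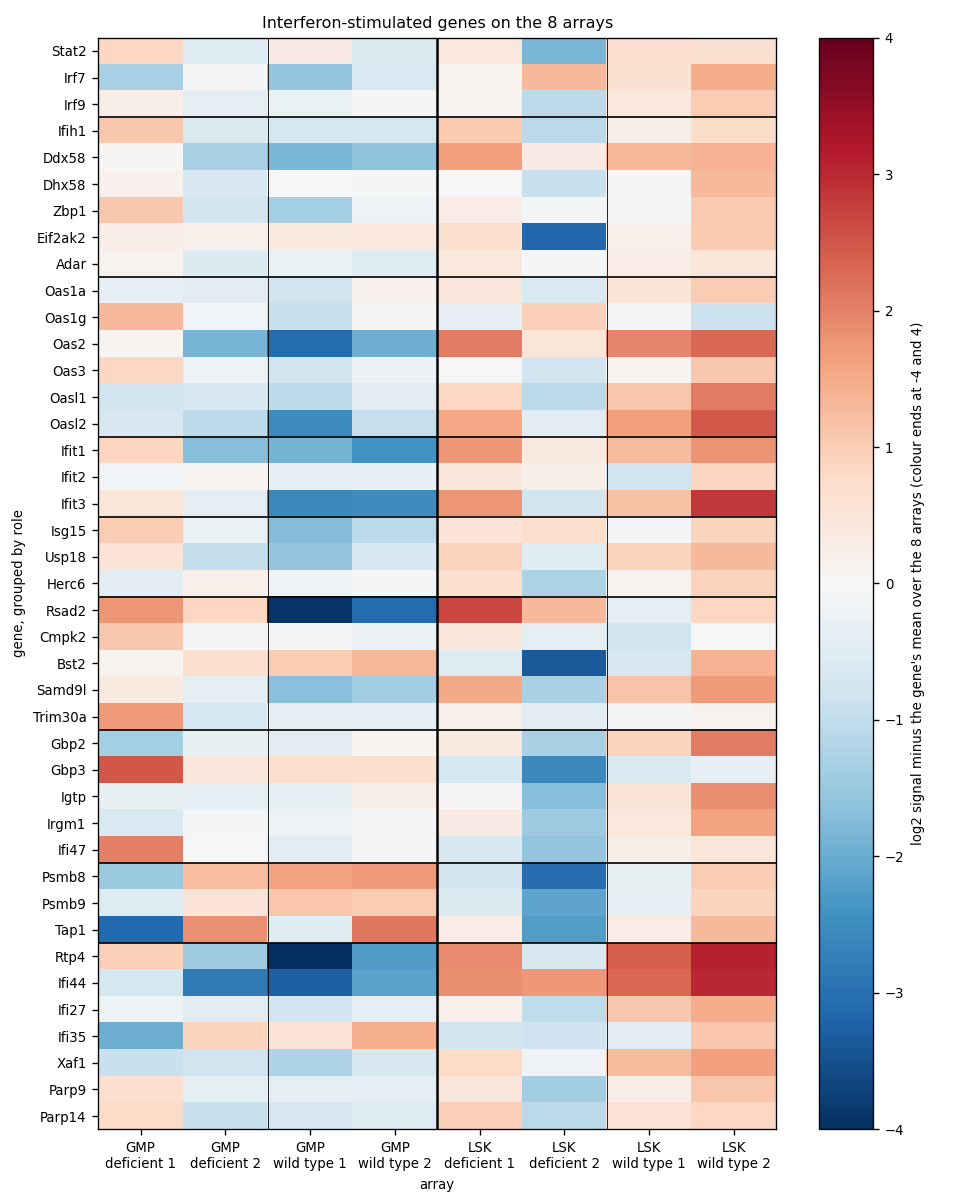
Level of the 41 members on each of the 8 arrays as log2 signal minus the mean of the gene over the arrays, with the colour ends at −4 and 4, genes down the page in groups by role and arrays across in the order deficient GMP, wild-type GMP, deficient LSK, wild-type LSK. The wild-type GMP columns are low for most members and the wild-type LSK columns high, and deficient LSK replicate 2 differs from deficient LSK replicate 1.

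Measured as the median over the 41 members of the level minus the mean of each gene, the deficient GMP arrays read 0.17 and −0.37, and the wild-type GMP arrays −0.66 and −0.35. In deficient LSK they read 0.44 and −0.83, and in wild-type LSK 0.31 and 1.09. Wild-type LSK thus lay above wild-type GMP on both arrays, while the deficient LSK arrays were the farthest apart of the 4 pairs. Over all 28088 features the same median was 0.19 and −0.09 for deficient GMP, −0.07 and −0.08 for wild-type GMP, −0.12 and 0.40 for deficient LSK, and 0.04 and −0.18 for wild-type LSK. Deficient LSK replicate 2 had the lowest member median and the highest median over all features.

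**Figure D2:**
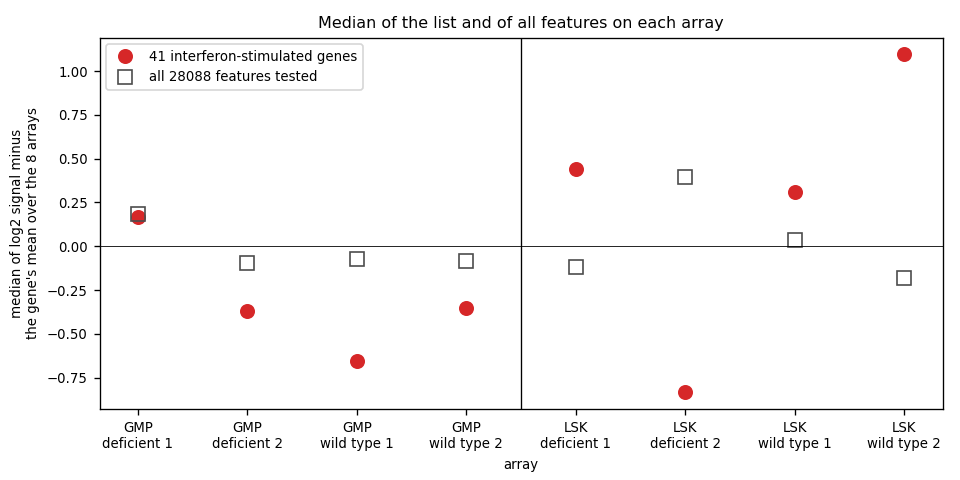
Median over genes of the log2 level minus the mean of each gene, on each of the 8 arrays, with red circles for the 41 members and open squares for all 28088 features. The member medians span −0.83 on deficient LSK replicate 2 to 1.09 on wild-type LSK replicate 2, and the squares stay between −0.18 and 0.40.

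The first comparison asked how the members differ between granulocyte-monocyte progenitors and the stem-cell-containing LSK population of wild-type marrow. Members were mostly lower in wild-type GMP than in wild-type LSK: 33 of 41 had a negative difference and 8 a positive one, with a median of −1.13, against 0.015 over all features. By limma with Benjamini-Hochberg adjustment over all 28088 features, 5 members were called, all lower in GMP, where 1.85% of features were called. At an unadjusted p under 0.05, 15 members passed, all lower in GMP, against 8.4% of features. The 5 were Rtp4, Ifi44, Oas2, Ifit3 and Rsad2.

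Ifi44, an interferon-induced protein with a GTPase-like fold, read −3.82 and −2.72 in wild-type GMP, against 1.72 and 2.46 in wild-type LSK. It fell by 5.36 ± 0.83 on the log2 scale in GMP (SE, n = 2 arrays per group, limma adjusted p = 0.012). Rtp4, a chaperone that carries receptors to the cell surface and restrains some RNA viruses, read −1.59 and 0.13 in wild-type GMP, against 4.78 and 5.46 in wild-type LSK. The groups of both genes were far apart, and the difference of Rtp4 was −5.85 ± 1.07 (SE, limma adjusted p = 0.0252). Oas2, which makes the oligoadenylate signal that activates the ribonuclease RNase L, read −1.82 and −0.70 in wild-type GMP, against 3.21 and 3.55 in wild-type LSK. Its arrays did not overlap either, and it differed by −4.64 ± 0.87 (SE, limma adjusted p = 0.0276).

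Ifit3, which forms complexes with its relative IFIT1 on viral RNA, read −5.04 and −4.97 in wild-type GMP, against −1.26 and 0.37 in wild-type LSK. On wild-type GMP replicate 1 the probe was not well above background, and the difference was −4.56 ± 0.93 (SE, limma adjusted p = 0.0409). Rsad2, which encodes viperin, an enzyme that makes a chain-terminating nucleotide, read −3.63 and −2.78 in wild-type GMP, against −0.05 and 1.13 in wild-type LSK. Both wild-type GMP arrays lay below both wild-type LSK arrays, with a difference of −3.75 ± 0.78 (SE, limma adjusted p = 0.0461). The calls depend on each wild-type array: 0 of the 5 were left without any 1 of the 4 wild-type arrays, where the single array left in its group is assumed to vary like the others, and also 0 after quantile normalization or median scaling. Without the 2 arrays that stood apart, where only the 4 wild-type arrays set the spread, 10 members were called, all lower in GMP. Calls over all features rose in that fit as well.

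By role, with the called genes included, the 3 IFIT proteins had a median of −3.70 with 3 of 3 below 0, the 6 oligoadenylate synthetases −1.72 with 5 below 0, the 3 genes of the ISG15 system −1.84 with 3 below 0, and the 6 sensors and RNA effectors −0.98 with 6 below 0. Oasl2 (−3.78, limma adjusted p = 0.067), Ddx58 (−3.08, limma adjusted p = 0.0854) and Ifit1 (−3.70, limma adjusted p = 0.093) came closest to the threshold without passing it. The antigen-processing genes lay on the other side, with a median of 0.76 and 3 of 3 above 0. The 8 members above 0 were Psmb8 (1.30), Gbp3 (1.12), Bst2 (0.79), Psmb9 (0.76), Ifi35 (0.65), Cmpk2 (0.25), Oas1g (0.05) and Tap1 (0.01), and 0 of them were called. Of the members with a promoter in the table, the 17 with the response element had a median of −1.13 with 14 below 0, and the 16 without it −0.71 with 11 below 0.

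**Figure D3:**
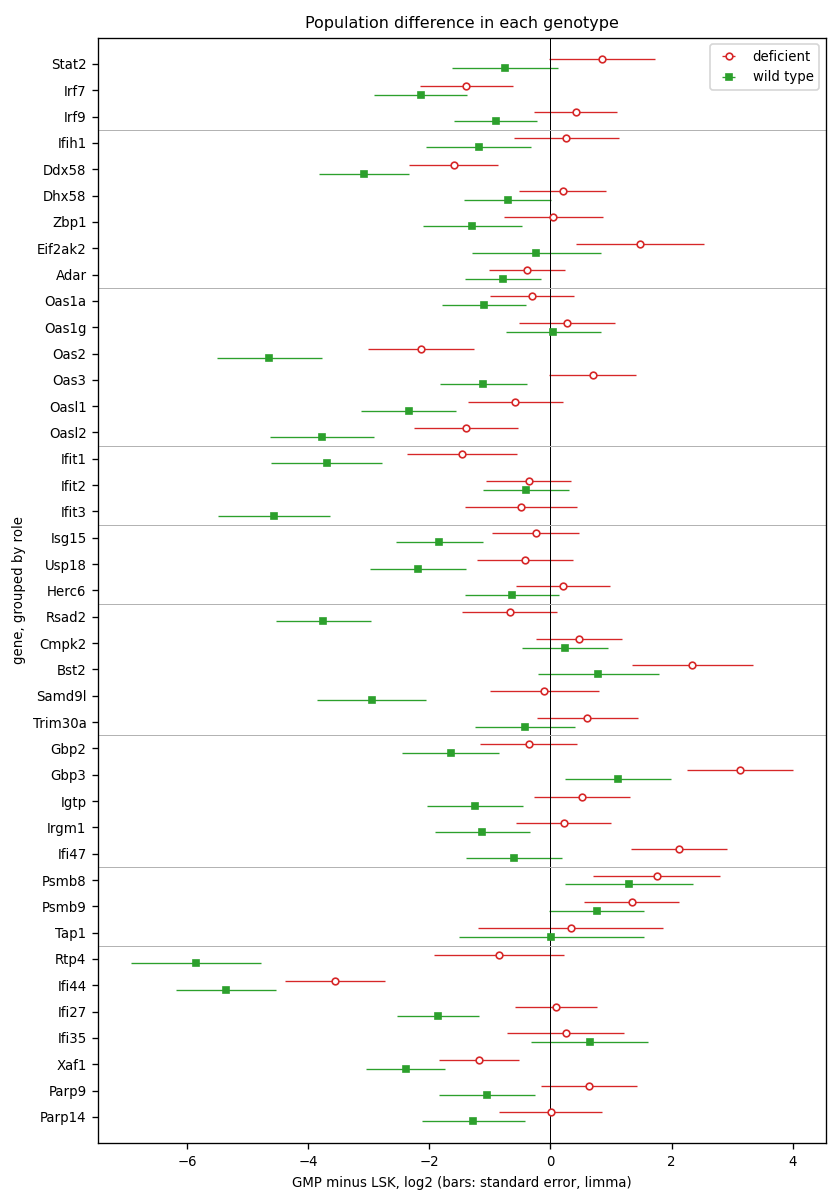
Difference between GMP and LSK for each of the 41 members on the log2 scale, shown for deficient and for wild-type mice, with bars for the standard error of the limma fit. In deficient mice 23 members lie above 0 and the range is −3.56 to 3.12, whereas in wild type 33 lie below 0, Rtp4 lowest at −5.85.

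In deficient mice the member values between the populations centred near 0. In deficient GMP relative to deficient LSK, 23 members were higher and 18 lower, with a median of 0.088, against −0.067 over all features. By limma 0 members were called, as were 0% of all features, and the lowest adjusted p of a member was 0.144. At an unadjusted p under 0.05, 5 members passed (3 higher and 2 lower), against 16.7% of features. The sign of the median rests on deficient LSK replicate 2: without that array it was −0.617, with 10 members above 0 and 31 below, and without the 2 arrays that stood apart it was −0.798, with 8 above and 33 below. It was also negative (−0.13) after quantile normalization.

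Ifi44 had the lowest difference of the members in deficient mice, at −3.56 ± 0.83 (SE, limma adjusted p = 0.144). It read −1.28 and −3.39 in deficient GMP and 1.30 and 1.16 in deficient LSK, so its groups did not overlap. Gbp3, a guanylate-binding protein of the family that attacks the vacuoles of intracellular microbes, had the highest, at 3.12 ± 0.87 (SE, limma adjusted p = 0.167). It read 5.27 and 3.21 in deficient GMP and 2.06 and 0.18 in deficient LSK. Rtp4 stood at −0.86 ± 1.07 in deficient mice (SE, limma adjusted p = 0.702), against −5.85 in wild type. Rsad2 stood at −0.67 ± 0.78 (SE, limma adjusted p = 0.677), against −3.75 in wild type, and Ifit3 at −0.48, against −4.56. Oas2 stood at −2.14 ± 0.87 (SE, limma adjusted p = 0.263), against −4.64. The test of these pairs of values is that of the genotype difference in GMP minus the genotype difference in LSK, in which 0 members were called.

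**Figure D4:**
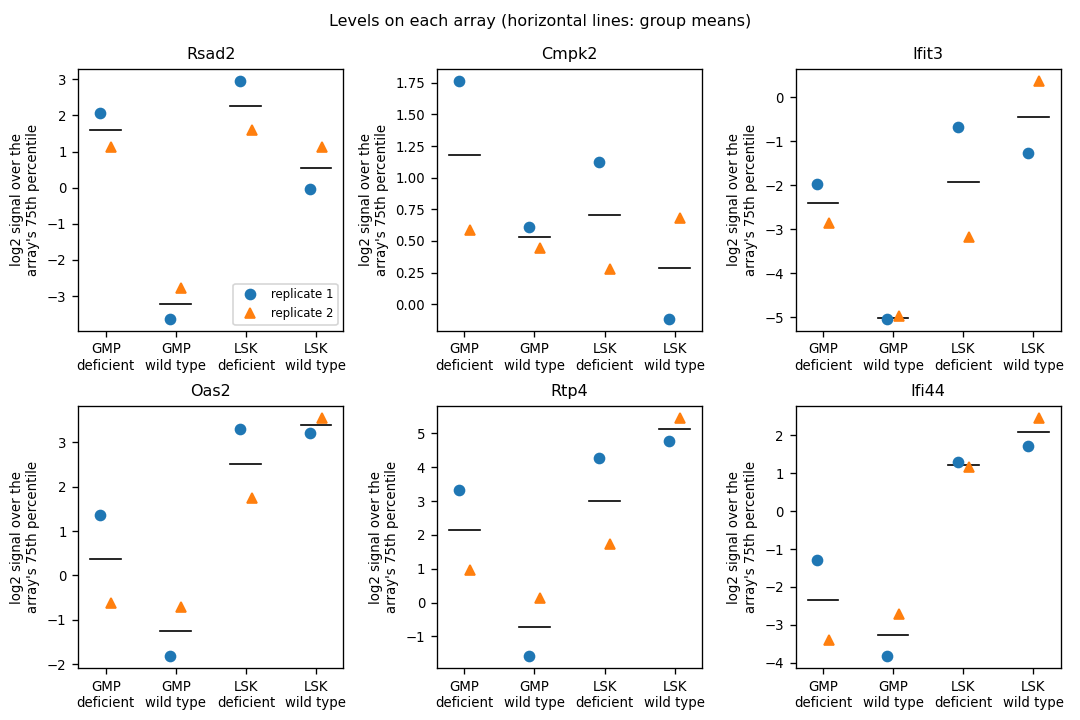
Log2 level over the 75th percentile of the array for Rsad2, Cmpk2, Ifit3, Oas2, Rtp4 and Ifi44 in deficient GMP, wild-type GMP, deficient LSK and wild-type LSK, with circles for replicate 1, triangles for replicate 2 and lines for the group means. For Rsad2, both deficient arrays of each population lie above both wild-type arrays of that population, and for Rtp4 they lie above in GMP and below in LSK.

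The genotype comparison in LSK asked whether the members differ when ACKR1 is absent from the animal. Their differences were mostly negative, with 36 of 41 members lower and 5 higher in deficient LSK and a median of −1.12, against 0.11 over all features. None passed the test: by limma 0 of 41 were called, where 0.239% of features were called, and at an unadjusted p under 0.05 there were 4 members, all lower (Bst2, Gbp2, Igtp and Ifi27), against 8.83% of features. Both deficient arrays lay below both wild-type arrays for 20 members, against 21.1% of features, and above both for 1 member, Rsad2, against 16.4% of features. The size of the shift rested on deficient LSK replicate 2. Within the slide rows, the member median was −0.03 between the replicate 1 arrays (19 above 0, 22 below) and −2.05 between the replicate 2 arrays (2 above 0, 39 below), and without deficient LSK replicate 2 the median over the group means was −0.25 (13 above 0, 28 below). Leaving out deficient LSK replicate 1 instead gave a median of −1.77, with deficient LSK then read only from the weak replicate 2.

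Bst2 encodes tetherin, which holds budding viruses on the cell membrane. It read 2.43 and −0.39 in deficient LSK and 2.32 and 4.35 in wild-type LSK, a difference of −2.31 ± 1.00 (SE, limma adjusted p = 0.55). The groups overlapped, and the low array was not well above background. Igtp, an immunity-related GTPase that acts at the vacuoles of parasites, read 1.80 and 0.06 in deficient LSK and 2.27 and 3.62 in wild-type LSK. Its difference was −2.02 ± 0.79 (SE, limma adjusted p = 0.55), with no overlap. Ifi27, a mitochondrial interferon-induced protein, read 5.11 and 3.88 in deficient LSK and 5.99 and 6.38 in wild-type LSK, a difference of −1.69 ± 0.68 (SE, limma adjusted p = 0.55). For each of the 3 the lowest array was deficient LSK replicate 2.

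In GMP the member differences lay mostly on the positive side. In deficient GMP 29 of 41 members were higher and 12 lower, with a median of 0.52, against 0.16 over all features. By limma 0 members were called, where 0.146% of features were, and 4 passed at an unadjusted p under 0.05, all higher (Rsad2, Ifit3, Rtp4 and Isg15), against 4.82% of features. For 12 members both deficient arrays exceeded both wild-type arrays (Ifih1, Ddx58, Oas2, Oas3, Ifit1, Ifit2, Ifit3, Isg15, Rsad2, Samd9l, Ifi47 and Rtp4), against 19.8% of features. They lay below both for 4 (Eif2ak2, Bst2, Psmb8 and Psmb9), against 19.6% of features. The median was 1.06 between the replicate 1 arrays (32 above 0, 9 below) and −0.13 between the replicate 2 arrays (16 above 0, 25 below), and it was 0.107 without deficient GMP replicate 1. Median scaling of the arrays left 23 members above 0 and 18 below.

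Rsad2 had the highest difference of the members in GMP. It read 2.08 and 1.12 in deficient GMP and −3.63 and −2.78 in wild-type GMP. The groups were separated by more than their spread, with a difference of 4.81 ± 0.78 (SE, limma adjusted p = 0.0606), which missed the threshold of 0.05. Rtp4 read 3.33 and 0.96 in deficient GMP, against −1.59 and 0.13 in wild-type GMP, a difference of 2.87 ± 1.07 (SE, limma adjusted p = 0.94). Ifit3 read −1.97 and −2.85 in deficient GMP, against −5.04 and −4.97 in wild-type GMP, a difference of 2.60 ± 0.93 (SE, limma adjusted p = 0.881). Isg15, the ubiquitin-like protein that is joined to other proteins, read 3.55 and 2.26 in deficient GMP and 0.78 and 1.44 in wild-type GMP, a difference of 1.80 ± 0.72 (SE, limma adjusted p = 0.956). The 4 genes had no overlap between genotypes in GMP, and for each of them the higher deficient array was replicate 1.

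**Figure D5:**
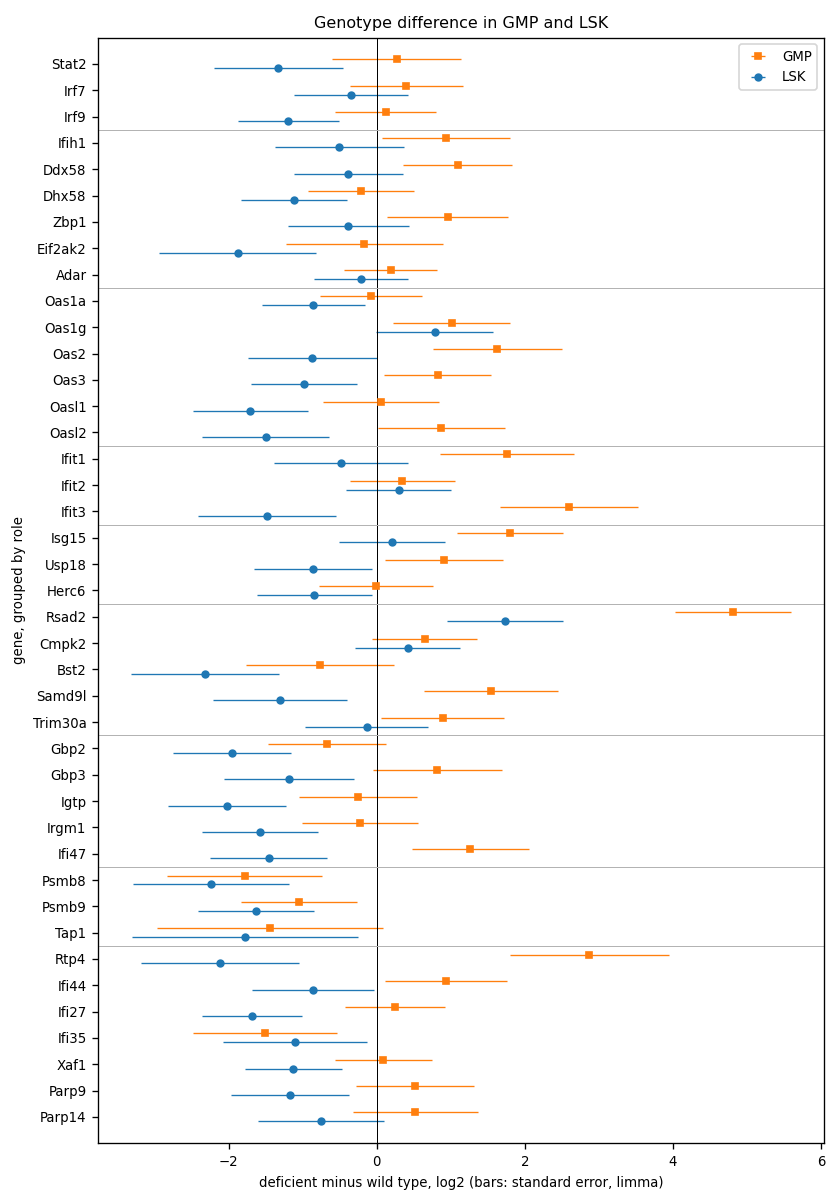
Difference between deficient and wild-type arrays for each of the 41 members on the log2 scale, in GMP and in LSK, with bars for the standard error of the limma fit. In LSK 36 members lie below 0 and in GMP 29 lie above 0, with Rsad2 above 0 in both at 4.81 in GMP and 1.73 in LSK.

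The genotype difference in GMP was then set against that in LSK in 1 fit. The value was positive for 40 of 41 members (all but Ifi35, at −0.40), with a median of 1.48, against −0.009 over all features. By limma 0 members were called, as were 0% of features, with a lowest adjusted p of 0.961. At an unadjusted p under 0.05 there were 4 (Rtp4, Ifit3, Rsad2 and Ifi47), against 2.48% of features. Rtp4 had the highest value, 4.99 ± 1.52 (SE, limma adjusted p = 0.961), followed by Ifit3 with 4.08 ± 1.31 (SE, limma adjusted p = 0.961). Both deficient arrays lay below wild type in LSK and above it in GMP for 3 members, Oas3, Ifi47 and Rtp4. The share of all features that did both was not computed, so this count has no background beside it. The median was 0.425, with 34 members above 0 and 7 below, when both arrays that stood apart were left out.

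The average over both populations was not among the planned comparisons and was added to them. In it the genotype difference had a median of −0.12, with 17 members above 0 and 24 below, against 0.16 over all features. That median ran from −0.628 to 0.162 when single arrays were left out, so its sign depends on 1 array. By limma 1 member was called, where 0.602% of features were: Rsad2 rose by 3.27 ± 0.55 on the log2 scale in deficient mice (SE, adjusted p = 0.0348). At an unadjusted p under 0.05 there were 4 members (Rsad2 higher, Gbp2, Psmb8 and Psmb9 lower), against 12.2% of features. In LSK alone Rsad2 read 2.96 and 1.59 in deficient arrays and −0.05 and 1.13 in wild-type arrays, a difference of 1.73 ± 0.78 (SE, limma adjusted p = 0.55). It was higher in 4 of 4 deficient arrays than in either wild-type array of the same population. The call was lost in 14 of 17 alternatives, the omission of any single array among them, while the difference stayed between 2.22 and 3.61.

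Cmpk2, a mitochondrial nucleotide kinase, lies next to Rsad2 on chromosome 12 with 0 annotated genes between them. It read 1.77 and 0.59 in deficient GMP and 0.61 and 0.45 in wild-type GMP. In LSK it read 1.12 and 0.28 in deficient arrays and −0.12 and 0.68 in wild-type arrays. The genotypes overlapped in both populations, and the differences were 0.65 in GMP and 0.42 in LSK. The other kept probe of Cmpk2 had the opposite sign in both. The difference of Rsad2 was 4.81 in GMP and 1.73 in LSK, and a test between the neighbours was not made.

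The 3 transcription factors, Irf9, Irf7 and Stat2, were not called in any comparison. Irf9, the DNA-binding subunit of the complex, read 3.38 and 2.75 in deficient GMP and 2.85 and 3.04 in wild-type GMP, with 3.23 and 2.07 in deficient LSK and 3.56 and 4.13 in wild-type LSK. The genotypes overlapped in GMP and not in LSK, with a difference of −1.19 ± 0.68 in LSK (SE, limma adjusted p = 0.569). Irf7, the factor that amplifies interferon production, read −2.71 and −1.46 in deficient GMP and −2.95 and −2.03 in wild-type GMP, with −1.27 and −0.12 in deficient LSK and −0.78 and 0.08 in wild-type LSK. Both GMP groups lay below both LSK groups, and the difference between the populations was −2.14 in wild type (limma adjusted p = 0.367). Stat2 differed by −1.33 between genotypes in LSK and by 0.27 in GMP (−0.40 without deficient GMP replicate 1), and neither was called.

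Sensors of foreign nucleic acid and the effectors that act on RNA had 6 members. Ddx58, which encodes the RNA sensor RIG-I, read 2.12 and 0.75 in deficient GMP and 0.23 and 0.45 in wild-type GMP. Both LSK groups were higher, with 3.69 and 2.38 in deficient and 3.39 and 3.44 in wild-type arrays. Its genotype difference in GMP was 1.09 ± 0.74 (SE, limma adjusted p = 0.956), and its other kept probe had the opposite sign there. Eif2ak2, the kinase PKR that stops translation, read 0.23 and 0.18 in deficient GMP, 0.35 and 0.39 in wild-type GMP, 0.60 and −3.16 in deficient LSK and 0.18 and 1.02 in wild-type LSK. The single low array was deficient LSK replicate 2, on which the probe was not well above background. Adar, the enzyme that edits adenosine in double-stranded RNA, read 2.75 and 2.05 in deficient GMP and 2.33 and 2.09 in wild-type GMP, with 3.02 and 2.56 in deficient LSK and 2.90 and 3.09 in wild-type LSK. Its genotypes overlapped in both populations on this probe. The other kept probe of Adar read −0.96 and 0.55 in deficient GMP, against 1.45 and 1.61 in wild-type GMP, without overlap. Ifih1, Dhx58 and Zbp1 had differences between −1.12 and −0.38 in LSK and between −0.21 and 0.96 in GMP.

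The oligoadenylate synthetases had 5 of 6 members below 0 in wild-type GMP relative to wild-type LSK. Oas1a read 3.35 and 3.25 in deficient GMP and 2.89 and 3.85 in wild-type GMP, with 4.15 and 3.07 in deficient LSK and 4.22 and 4.71 in wild-type LSK. Oasl1, a relative that restrains IRF7 translation, read 0.41 and 0.52 in deficient GMP and 0.11 and 0.71 in wild-type GMP, with 1.99 and 0.10 in deficient LSK and 2.27 and 3.23 in wild-type LSK. For both genes wild-type LSK was above wild-type GMP with no overlap, while in deficient mice the populations overlapped. Oas2 in deficient mice read 1.36 and −0.62 in GMP and 3.29 and 1.73 in LSK. Oas1g, the exception of the family, lay between −4.94 and −2.76 on all arrays. Genes of the Oas1 and Ifit families have near-identical copies, so a probe may also report a relative and these values are uncertain in that respect.

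Of the other IFIT proteins, Ifit2, which binds RNA and slows translation, read −1.31 and −1.13 in deficient GMP and −1.61 and −1.52 in wild-type GMP, with −0.75 and −0.97 in deficient LSK and −1.97 and −0.35 in wild-type LSK. The deficient GMP arrays lay just above the wild-type ones and the LSK groups overlapped. Ifit3 in LSK read −0.68 and −3.18 in deficient and −1.26 and 0.37 in wild-type arrays, a difference of −1.48 ± 0.93 (SE, limma adjusted p = 0.575). In the ISG15 system, Isg15 read 3.06 and 3.24 in deficient LSK and 2.49 and 3.40 in wild-type LSK, which overlapped. Herc6, the main ligase that attaches ISG15 in mice, read −2.37 and −1.71 in deficient GMP and −2.09 and −1.98 in wild-type GMP, with −1.29 and −3.19 in deficient LSK and −1.79 and −1.0 in wild-type LSK. Usp18, the protease that removes ISG15 and dampens the receptor, had a difference of 0.90 between genotypes in GMP and −0.86 in LSK, neither of them called.

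Bst2, among the other antiviral effectors, read 3.12 and 3.60 in deficient GMP and 3.96 and 4.29 in wild-type GMP. In GMP both deficient arrays were thus the lower ones, with a difference of −0.76, although the other 4 measured effectors, Rsad2, Samd9l, Trim30a and Cmpk2, had positive values between 0.65 and 4.81. Samd9l, which restrains translation and growth, differed by 1.54 in GMP and −1.31 in LSK, and by 0.11 in LSK without deficient LSK replicate 2. Trim30a read 3.92 on deficient GMP replicate 1 and at most 2.41 on the other 7 arrays, and its GMP difference was −0.32 without that array.

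The interferon-inducible GTPases had 5 members, all with negative differences in LSK, with a median of −1.58 and 0 called. Ifi47, an immunity-related GTPase, read 6.47 and 4.45 in deficient GMP and 4.02 and 4.37 in wild-type GMP, with 3.81 and 2.87 in deficient LSK and 4.68 and 4.92 in wild-type LSK. The deficient arrays were above wild type in GMP and below it in LSK, with differences of 1.27 (limma adjusted p = 0.956) and −1.46 (limma adjusted p = 0.561). Igtp in GMP read 1.46 and 1.44 in deficient and 1.38 and 2.03 in wild-type arrays, which overlapped. Gbp2 had −1.95 in LSK and −0.67 in GMP, and Irgm1 −1.58 and −0.23.

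Antigen-processing genes had 3 of 3 members below 0 in deficient GMP relative to wild type, and 2 of 3 without deficient GMP replicate 1. Psmb8, a catalytic subunit of the immunoproteasome, which cuts proteins into peptides for MHC class I, read 2.63 and 5.36 in deficient GMP and 5.74 and 5.82 in wild-type GMP. In LSK it read 3.40 and 1.08 in deficient and 3.82 and 5.14 in wild-type arrays. The deficient arrays were below wild type in both populations, with differences of −1.78 ± 1.05 in GMP (SE, limma adjusted p = 0.956) and −2.24 ± 1.05 in LSK (SE, limma adjusted p = 0.55). Psmb9, another catalytic subunit, read 3.69 and 4.74 in deficient GMP and 5.32 and 5.23 in wild-type GMP, with 3.63 and 2.12 in deficient LSK and 3.90 and 5.12 in wild-type LSK. It too had no overlap, with −1.05 in GMP and −1.63 in LSK. Tap1, part of the peptide transporter, lies beside both on chromosome 17 and read −3.86 and 1.07 in deficient GMP and −1.25 and 1.36 in wild-type GMP, so its 2 arrays of a group disagreed by more than its genotype difference of −1.45. Without deficient GMP replicate 1 the GMP differences were −0.42 for Psmb8, −0.53 for Psmb9 and 1.02 for Tap1. None of the 3 was called in any comparison.

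Of the remaining members, Rtp4 in LSK read 4.27 and 1.74 in deficient and 4.78 and 5.46 in wild-type arrays, a difference of −2.12 ± 1.07 (SE, limma adjusted p = 0.55). Both deficient arrays were below both wild-type arrays, the opposite of its order in GMP. Ifi27 in GMP read 4.69 and 4.48 in deficient and 4.14 and 4.52 in wild-type arrays, which overlapped. Ifi44 differed by 0.94 in GMP and −0.86 in LSK between genotypes, and by −0.12 in GMP without deficient GMP replicate 1. Parp9 and Parp14, which attach or read ADP-ribose, had 0.52 each in GMP and −1.17 and −0.76 in LSK. Without the array that stood apart in each population, Parp14 read −0.30 in GMP and 0.27 in LSK, and Parp9 −0.01 in GMP. Xaf1, a pro-apoptotic protein, had a difference of −2.39 between wild-type GMP and wild-type LSK (limma adjusted p = 0.145).

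Of 54 other genes of the interferon pathway listed beside the members (ligands, receptors and kinases, factors and regulators, sensors and adaptors, and further GTPases), 45 were tested. Ifna6, Ifna9, Ifnz and Ifnl2 had no probe under the same rule, and Ifnb1, Ifne, Ifnk, Ifng and Tlr3 were too dim for the filter. In deficient LSK 17 were higher and 28 lower, and in deficient GMP 26 were higher and 19 lower, with 0 called in either. The 9 ligands tested had a median of 0.76 in LSK and 0.058 in GMP with 0 called, and probes of interferon alpha and lambda genes can report near-identical copies. The chains of the type I interferon receptor, Ifnar1 and Ifnar2, had genotype differences of −1.59 and −1.44 in LSK and of −0.47 and −0.62 in GMP, and neither was called.

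Ifnlr1, the specific chain of the type III interferon receptor, was called in the unplanned average of both populations, where 0.602% of features were called. It read −0.07 and −1.15 in deficient GMP and −4.18 and −3.58 in wild-type GMP, and in LSK −0.31 and −1.22 in deficient and −3.10 and −3.78 in wild-type arrays. All 4 deficient arrays lay above all 4 wild-type arrays, although deficient LSK replicate 2 was not well above background. The lowest level that counted as well above background was −1.44 on that array, against −5.17 and −6.68 on the wild-type LSK arrays. The LSK difference and the averaged call thus lean on a reading that is not set apart from background. The call of Ifnlr1 was not followed through the alternatives. It rose by 2.97 ± 0.50 in deficient mice (SE, limma adjusted p = 0.0348), with 3.27 ± 0.71 in GMP (SE, limma adjusted p = 0.219) and 2.67 ± 0.71 in LSK (SE, limma adjusted p = 0.359). Rsad2 and Ifnlr1 were thus the called genes of the averaged genotype comparison among the 41 members and the 45 pathway genes. The late granulocyte and erythroid sums also separated every deficient from every wild-type array, and their part in these differences was not tested.

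Between the wild-type populations, 21 of the 45 pathway genes were higher in GMP and 24 lower. Among them 1 was called, where 1.85% of all features were, so the count lies near that share. Irf4, a lymphoid and dendritic cell factor, read −5.86 and −7.61 in wild-type GMP, not well above background on either array, and −2.95 and −2.84 in wild-type LSK. Its log2 difference of −3.84, which rests on these dim readings, was called (limma adjusted p = 0.0404). As a bound without a test of its own, Irf4 was at least 8.04-fold lower in GMP. The bound compares wild-type LSK with the lowest signal that counted as well above background on each wild-type GMP array. Irf8, a factor of monocyte and dendritic cell progenitors, read 7.09 and 6.59 in wild-type GMP, against 2.04 and 3.67 in wild-type LSK, a difference of 3.98 ± 0.94 (SE, limma adjusted p = 0.0811). Gbp4 lay on the side of most members, with −4.10 (limma adjusted p = 0.0607), and 7 of 7 further GTPases were below 0. In deficient mice 25 pathway genes were higher and 20 lower in GMP than in LSK, with 0 called.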

How the data were processed

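Each of the 8 samples was hybridised to a 1-colour Agilent array on 1 slide, and the arrays were read in 1 scan with Agilent Feature Extraction 10.7.3.1, per the file headers, which give mm9 as the build of the design. The processed signal is a linear intensity corrected for background by that program, per the file headers. The authors also deposited a normalized table in log2 units. Its columns followed the processed signal after scaling to the 75th percentile and centring of probes (r between 0.9997 and 0.99997). Their medians were 0.31 and −0.11 for deficient GMP, −0.13 and −0.13 for wild-type GMP, 0.041 and 1.24 for deficient LSK, and 0.12 and −0.26 for wild-type LSK. That table was an alternative.

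Each array's 75th percentile was subtracted from its log2 processed signals, without control and outlier spots (104 to 139 outliers and 0 saturated spots per array). Of 55681 probes, 39098 were kept, being well above background on both arrays of some group. Genes were named through RefSeq accessions of the GRCm38.p6 table, with 26582 probes matched, and 1 probe per gene was used. Of 10 members with several kept probes, another probe had the opposite sign for 3 in LSK (Irgm1, Cmpk2 and Isg15), 5 in GMP (Adar, Cmpk2, Ddx58, Herc6 and Zbp1), 4 between deficient populations and 1 between wild-type populations. Tests used limma 3.58.1 under R 4.3.3 (lmFit and eBayes with 4 group means, 4 residual and 5.75 prior degrees of freedom), tested on simulated data, and adjusted by Benjamini-Hochberg over all 28088 features at a threshold of 0.05. The number of arrays limits the precision. Figures were drawn with matplotlib 3.10.9 in Python 3.11.15.

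Members and lists were chosen with earlier results of these data known. The average of the genotype difference over both populations was added to the planned comparisons. Any member could be named. Values of every array were given for called members and, in each role, for the member with the highest mean and those with the smallest p in the genotype comparisons and their difference. Pathway genes were named by the smallest p. A few others (Cmpk2, Gbp3, Tap1, Ly6a, and the members and pathway genes given by their differences) were named after their values were seen. Same-numbered samples were not paired: the correlation of their deviations between groups ran from −0.344 to 0.343. Alternatives were normexp (on median signals in place of the planned mean signals), quantile and median scaling, the deposited table, no filter, array weights, the mean of probes, a replicate block, single comparisons, and arrays left out. Some listed genes are not reported here by name.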

Additional observations from a re-analysis of the deposited data

How the results depend on the processing

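Among called members, all 5 kept their direction in 18 alternatives of the wild-type population comparison, with adjusted p between 1.39e-05 and 0.136 for Ifi44, 1.2e-06 and 0.187 for Rtp4, 0.000339 and 0.246 for Oas2, 0.000461 and 0.862 for Ifit3 and 0.00168 and 0.413 for Rsad2. The number of members called there was 0 with quantile normalization, 0 with median scaling and 1 with no filter. With array weights it was 15, but the 2 arrays of each group had equal weights, so these weights set no single array apart. The number was 10 with the 4 wild-type arrays alone. Leaving out the 2 arrays that stood apart is the same fit for this comparison, as the lone deficient arrays add nothing to the estimate of spread. It ran from 0 to 7 when single arrays were left out, with 0 without any of the 4 wild-type arrays and 7 without either deficient LSK array. For deficient GMP against deficient LSK it was 1 with normexp (Gbp3, higher), 1 with the replicate block (Ifi44, lower) and 0 to 3 with single arrays left out, the 3 without deficient LSK replicate 1 (Eif2ak2, Bst2 and Gbp3), and the median ran from −0.617 to 0.706, with −0.798 without both arrays that stood apart.

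For genotype in LSK, the median ran from −1.77 to −0.25 with single arrays left out, and was −0.25 without both arrays that stood apart. In GMP, 1 member, Rsad2, was called with the replicate block, and the median ran from 0.107 to 1.05, with 0.107 without both arrays. The difference between these had medians from 0.765 to 2.19 and 0.425 without both. Averaged over the populations, the count was 0, against 1, with normexp, quantile normalization, median scaling, no filter, array weights, any single array left out and both arrays left out, and Rsad2 had adjusted p between 0.000472 and 0.345. In these fits without 1 array, the lone array of a group is assumed to vary like the others. The causes were not tested.

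Scaling shifted the median of all features in LSK to −0.25 with quantile normalization, −0.46 with median scaling and 0.41 with normexp, against 0.11, and members stood at 2 above 0 and 39 below in LSK under median scaling. Calls over all features in LSK numbered 67, against 27 with normexp, 27 with quantile normalization, 2 with median scaling, 6 with no filter, 1 with array weights, 480 with the replicate block, 37 without both arrays that stood apart, and 0 to 2813 with single arrays left out. In GMP they numbered 41, against 2 with quantile normalization, 1 with median scaling, 9 with no filter, 193 with the block, 0 with the 4 arrays alone, 1 without both arrays and 2 to 36 with single arrays left out. The difference between genotypes had 0, and 14 with the block. The average had 169, against 88, 46, 40, 83, 89, 907 and 100 with normexp, quantile normalization, median scaling, no filter, array weights, the block and both arrays left out, and 70 to 206 with single arrays left out. Between deficient populations there were 0, against 846 with normexp, 699 with the block, 130 with the 4 arrays alone and 4268 without deficient LSK replicate 1. Between wild-type populations there were 521, against 322, 84, 200, 213 and 2441 with normexp, quantile normalization, median scaling, no filter and array weights, 1347 with the 4 arrays alone, 1347 without both arrays and 17 to 645 with single arrays left out.

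The main limits are 2 arrays per group and the weak deficient LSK replicate 2, on which 9 members were not well above background. Granulocyte, erythroid and LSK marker sums separate the genotypes in both populations, and B cell, T and NK cell and monocyte marker sums do so in GMP.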
